A study of Mus musculus with 16 samples.

Results

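The 8 arrays described here, of 16 in the series, compare the sciatic nerve miRNAs of Dicer mutant mice with those of their controls at postnatal day 4 (p4). The arrays were taken by their titles, fl-P4 1 to 4 for the mutants and wt-P4 1 to 4 for the controls, and all mouse miRNAs on them are described. The mutants were Dicer fl/fl Dhh-Cre+, with both Dicer1 alleles flanked by loxP sites, and are called fl/fl. The controls were Dicer wt/fl Dhh-Cre+ and are called wt/fl, so they carried the Cre transgene and 1 floxed allele as well, and wild-type nerve without Cre is not among the samples. All animals came from the strain Dicer1tm1Bdh/J and from crosses of Dhh-Cre+ Dicer wt/flox with Dicer flox/flox mice. Each array holds the total RNA of the nerves of 1 animal, and the sexes were not matched: the fl/fl group had 1 male and 3 females and the wt/fl group 2 males and 2 females. The other 8 arrays hold nerves of the same genotypes at embryonic day 17 (E17). Of 611 mouse miRNAs on the array, 276 were expressed, which means detected on 2 or more of the 4 arrays in at least 1 of the 4 groups of age and genotype.

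Dicer is the RNase III enzyme that cuts hairpin precursors into mature miRNAs, which then guide Argonaute proteins to messenger RNAs through their seed, the bases near the 5' end. In a nerve with the Dhh-Cre transgene the Cre recombinase is driven by the desert hedgehog promoter, which is active in the Schwann cell lineage. The nerve also holds axons, fibroblasts, blood vessels and blood cells, and in which of these cells Dicer was lost was not measured on these arrays. Schwann cells are the glia that wrap and myelinate axons, and around p4 a control mouse nerve is in the middle of that process. miRNAs are stable, so a cell that has lost Dicer can keep its mature miRNAs for some time. The nerve was not sorted into cell types. Lower signal from fewer Schwann cells and from less miRNA per Schwann cell therefore cannot be told apart in these data, and neither can higher signal from more cells of another type.

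The mature sequences below carry the results that follow, and were read from RefSeq with the positions of the mouse assembly GRCm38.p6. RefSeq gave a sequence for 160 of the 276 expressed miRNAs and for 51 of the 59 that passed the test, by the array's name or by its newer equivalent. The capitals mark the seed, bases 2 to 8. The first set holds miRNAs that fell in the fl/fl nerves, the 4 with the largest falls among them, and for most of them a relative with the same seed that the results set beside it. miR-338-3p lies on the minus strand at chr11:120014781-120014802, miR-34a at chr4:150068473-150068494 and miR-204 at chr19:22750610-22750631, both on the plus strand.
miR-338-3p: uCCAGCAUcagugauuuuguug
miR-34a: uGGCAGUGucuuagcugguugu
miR-204: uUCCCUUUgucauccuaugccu
miR-211: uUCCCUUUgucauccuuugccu
miR-146b: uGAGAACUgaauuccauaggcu
miR-146a: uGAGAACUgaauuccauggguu
miR-27b: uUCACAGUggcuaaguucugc
miR-27a: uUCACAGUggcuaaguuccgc
miR-30a: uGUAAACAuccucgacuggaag
miR-30e: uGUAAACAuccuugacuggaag
miR-20b: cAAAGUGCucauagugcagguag
miR-20a: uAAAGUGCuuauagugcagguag
miR-93: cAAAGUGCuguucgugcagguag
miR-106b: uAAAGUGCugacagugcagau
let-7f: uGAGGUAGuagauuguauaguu
let-7e: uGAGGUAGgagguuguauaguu
The second set is miRNAs that were higher in the fl/fl nerves after normalization. They include miR-182, miR-183 and miR-96, whose hairpins lie on chr6, and miR-199a and miR-214, whose hairpins lie together on chr1. miR-199a has a further copy outside that group. The last is miR-451, a miRNA known to mature through Argonaute 2 without Dicer.
miR-183: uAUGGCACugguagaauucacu
miR-96: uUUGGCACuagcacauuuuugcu
miR-182: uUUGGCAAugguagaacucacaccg
miR-199a-5p: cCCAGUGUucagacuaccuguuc
miR-199a-3p: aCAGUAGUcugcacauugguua
miR-214: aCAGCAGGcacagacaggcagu
miR-451: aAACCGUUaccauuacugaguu

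The summed signal of all mouse miRNAs was lower in the fl/fl nerves before any normalization. On the log2 scale it was 15.98, 16.35, 15.79 and 16.14 on the 4 fl/fl arrays and 16.98, 17.23, 17.01 and 16.90 on the 4 wt/fl arrays. No fl/fl array reached the lowest wt/fl array. The means were 16.07 ± 0.24 and 17.03 ± 0.14 (SD, n = 4 each), so the fl/fl sum was 51.2% of the control (log2 difference -0.96, exact two-sided permutation test, p = 0.0286, the smallest value 4 against 4 arrays can give). The median array signal of the expressed miRNAs was 78.9% of the control (p = 0.0286, the same exact test). The number of mouse miRNAs detected was 233.75 ± 11.53 in fl/fl and 246.25 ± 15.20 in wt/fl nerves (SD, n = 4, exact permutation p = 0.229). With median spot signals minus the local background in place of the scanner's total gene signal, the log2 difference of the sum was -0.52 (exact permutation p = 0.0857, n = 4).

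After quantile normalization, which gives all 16 arrays the same distribution of signals, 30 miRNAs were lower and 29 higher in fl/fl nerves by limma (Benjamini-Hochberg adjusted p of at most 0.05 over 681 probes and a log2 difference of at least 0.5). These are 10.9% and 10.5% of the 276 expressed miRNAs. The median difference over all 276 was 0.07 on the log2 scale. Values below are quantile-normalized log2 signals of a miRNA's brightest probe unless another scale is named, each list's counts are to be read against these shares, and p-values are adjusted ones from that limma fit. Where no array of a genotype read a miRNA well above background, its size is given as a lower bound ("at least"), or the miRNA is said to lie at background.

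The split between falls and rises depended on the scaling. Without normalization the median difference of the 276 miRNAs was -0.19, and 88 were lower (31.9%) and 1 was higher (0.362%). The 88 included all 30 that were lower after normalization, and miR-183 was the 1 that was higher. With a common 75th percentile set for the probes that every array read well above background, the median was 0.69, and 22 were lower (7.97%) and 199 higher (72.1%). Relative to the median of the unnormalized differences, each of the 30 falls lay below and 28 of the 29 rises above. Scaling to the 75th percentile shifts all miRNAs of an array alike, so it repeats this comparison. After quantile normalization the limits of the calls fix its outcome. The calls come from the same arrays, so this is a description and no separate test. A rise described below is to be read only as a rise relative to the other miRNAs of the same nerve. The size of a fall, and the share of control signal it left, are relative in the same way. As scanned, the 29 differed between the genotypes by -0.32 to 0.63, and 28 of them did not pass the test.

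**Figure D1:**
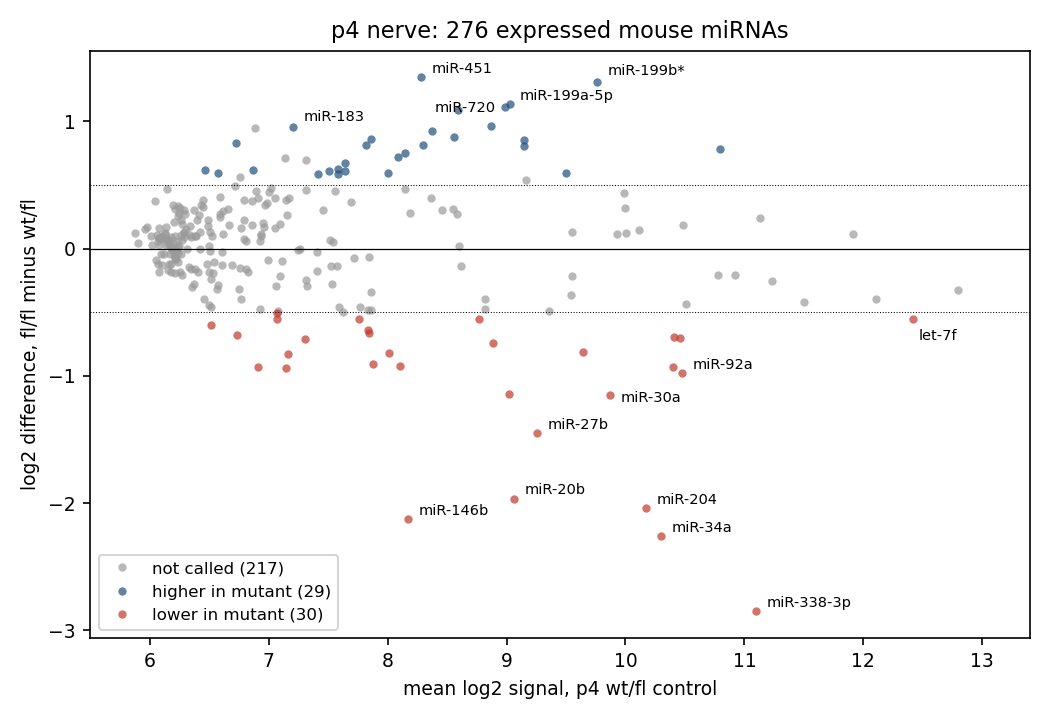
Log2 difference between p4 fl/fl and p4 wt/fl nerves (vertical axis) against the mean log2 signal in p4 wt/fl nerves (horizontal axis) for 276 expressed mouse miRNAs, quantile normalized, 4 arrays a group. Red points are the 30 called lower, blue points the 29 called higher, and dotted lines mark the limit of 0.5; the falls reach -2.85 and the rises 1.35.

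The fl/fl and wt/fl arrays did not overlap for 29 of the 30 lower and 26 of the 29 higher miRNAs, where 49.3% of all 276 had groups that did not overlap. The exceptions were let-7f among the falls, and miR-451, miR-199a-3p and miR-126-3p among the rises. There were 8 falls and 5 rises of at least 1 on the log2 scale. The p4 arrays numbered 3 stood apart from the others. They had 757 and 790 spots marked as outliers against 365 to 444 on the other p4 arrays. The fl/fl array numbered 3 was the lowest of its group for 23 of the 30 falls and 27 of the 29 rises, and the wt/fl array numbered 3 for 16 and 25. Without both arrays 62 miRNAs passed the test, and 56 of the 59 were among them.

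The largest fall was that of miR-338-3p, an abundant miRNA of myelinating glia known to promote their differentiation, whose hairpin lies within an intron of the Aatk gene. Its signal on wt/fl arrays 1 to 4 was 11.14, 10.97, 10.57 and 11.72. On the fl/fl arrays it was 8.38, 8.41, 7.77 and 8.45. Every mutant nerve lay more than 2 log2 units below the lowest control nerve. The difference was -2.85 (SE 0.21, adjusted p = 9.29e-08), which left 13.9% of the control signal after quantile normalization. As scanned the difference was -3.85. The other arm of this hairpin, miR-338-5p, lay between 6.44 and 6.62 in wt/fl nerves and between 5.88 and 5.93 in fl/fl nerves. No fl/fl array read it well above background, so it fell at least 1.17-fold (adjusted p = 1.08e-07). With 75th percentile scaling its difference turned to 0.043 and did not pass.

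miR-138, which is found in both central and peripheral myelinating glia, had a measured difference of -0.94 (SE 0.06, adjusted p = 1.71e-08). The control values were 7.28, 7.04, 7.16 and 7.12, and the mutant values 6.22, 6.20, 6.13 and 6.28. It fell to a signal that only 1 of 4 fl/fl arrays read well above background, so the size of the fall rests on values near background. Its passenger strand miR-138* was well above background on all 4 wt/fl arrays and on no fl/fl array, at least 1.17-fold lower (adjusted p = 8.12e-07), and was not called. miR-219, the other classical miRNA of oligodendrocyte differentiation, was detected on none of the 8 p4 arrays. Of the 4 expressed members of the myelinating glia list 3 fell and none rose, and the median of the measured differences was -0.77. As scanned, the summed signal of that list was 6.97 to 8.05 on the log2 scale in fl/fl nerves and 11.54 to 11.94 in wt/fl nerves.

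miR-34a, a target of p53 that represses cell cycle genes, read 10.45, 10.33, 10.11 and 10.31 in the 4 control nerves. The mutant nerves read 8.20, 8.11, 7.80 and 8.06. The groups lay almost 2 log2 units apart at their nearest values. The difference was -2.26 (SE 0.10, adjusted p = 9.85e-10), or 20.9% of the control after quantile normalization, and -3.33 as scanned. miR-34a was the 1 expressed member of its family, and its paralogs miR-34b and miR-34c were not expressed.

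miR-146b belongs to a family that restrains Toll-like receptor and NF-kB signalling. Its control values were 8.39, 8.12, 8.09 and 8.08, and its mutant values 6.02, 6.16, 5.99 and 6.02. No mutant array read it well above background, so the fall was at least 3.70-fold (adjusted p = 6.23e-12). miR-204, an intronic miRNA of the Trpm3 gene, read 10.21, 10.08, 10.06 and 10.35 in the controls and 8.15, 8.19, 7.73 and 8.47 in the mutants. The 2 groups were separated by more than 1.5 log2 units, and the difference was -2.04 (SE 0.18, adjusted p = 5.28e-07).

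**Figure D2:**
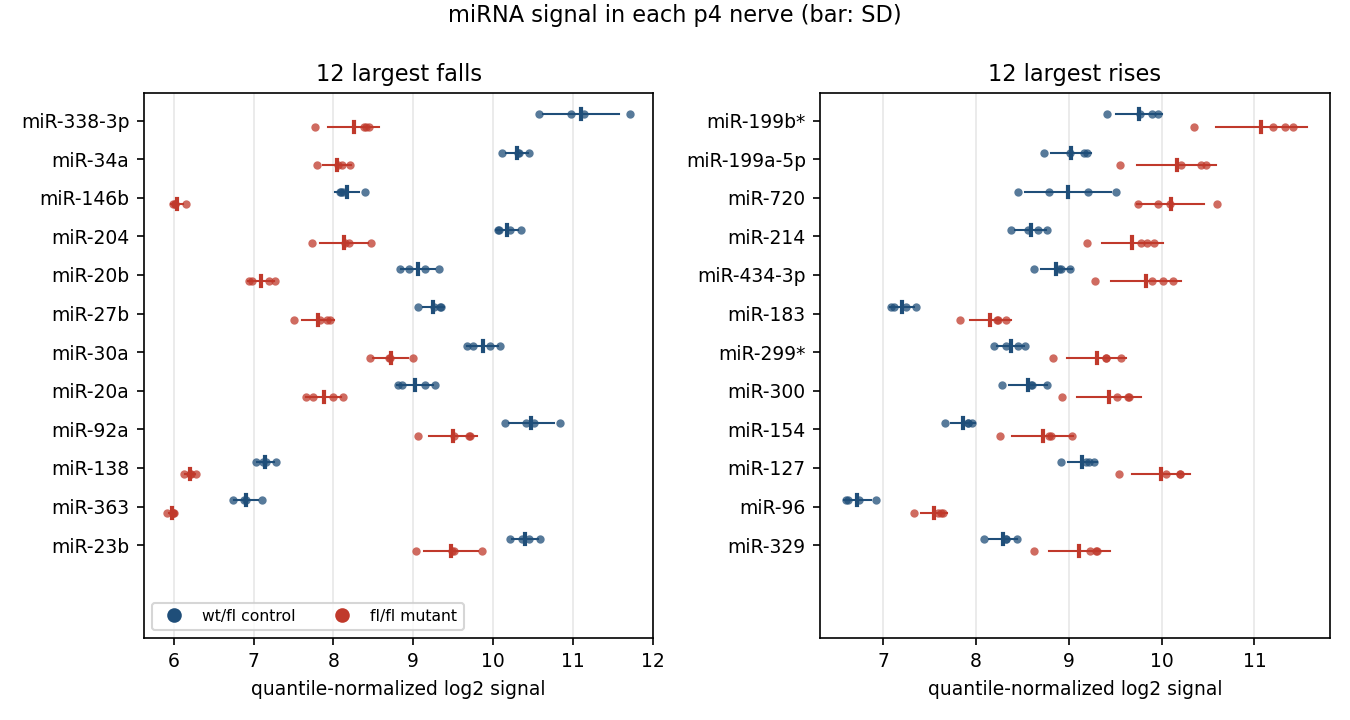
Quantile-normalized log2 signal (horizontal axis) of the 12 largest falls and the 12 largest rises among called miRNAs whose groups do not overlap, with 1 point for each of 4 wt/fl (blue) and 4 fl/fl (red) nerves, a vertical tick at the mean and a bar of ± 1 SD. miR-338-3p fell from 11.1 to 8.25 and miR-199b* rose from 9.76 to 11.1 in mean signal.

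The miRNAs of the miR-17 to miR-92 hairpins and their paralogs on chr5 and chrX, which are known for promoting proliferation, held several of the falls. Of 11 expressed members 6 fell and none rose, with a median of -0.82. miR-20b read 9.15, 8.83, 8.95 and 9.32 in wt/fl and 6.94, 7.28, 6.98 and 7.20 in fl/fl nerves. Its difference of -1.96 was the largest fall of the group (SE 0.12, adjusted p = 1.71e-08). miR-20a differed by -1.14 (adjusted p = 5.94e-06) and miR-92a by -0.98 (adjusted p = 8.32e-05). miR-93 differed by -0.92 and miR-106b by -0.82, both past the test. miR-363 was at 6.74 to 7.11 in the controls and not well above background on any fl/fl array, a fall of at least 1.54-fold. The members that missed the limits were miR-18a at -0.49, miR-19b at -0.49, miR-25 at -0.40 and miR-19a at -0.19, and miR-17*, at background in fl/fl nerves, was lower by at least 1.05-fold. All 11 measured differences were below 0, beside 117 of all 276.

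The miR-23, miR-27 and miR-24 miRNAs come from 2 clusters, on chr13 and chr8. miR-27b of chr13 read 9.34, 9.26, 9.06 and 9.35 in the controls and 7.95, 7.92, 7.51 and 7.83 in the mutants (-1.45, SE 0.11, adjusted p = 1.12e-07). miR-23b of the same cluster read 10.59, 10.36, 10.21 and 10.45 against 9.86, 9.48, 9.04 and 9.51 (-0.93, adjusted p = 9.98e-05). Neither overlapped between the genotypes. miR-27a and miR-23a of chr8 differed by -0.21 (adjusted p = 0.190) and 0.12 (adjusted p = 0.544). miR-24, whose mature sequence both clusters encode, fell by 0.69 (adjusted p = 9.02e-05), and miR-24-1*, the passenger strand of the chr13 copy, was at background in fl/fl nerves, at least 1.13-fold lower and not called.

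In the miR-30 family, which is widely expressed in differentiated cells, 4 of 10 expressed members fell and none rose (median -0.37). miR-30a read 9.96, 9.75, 9.67 and 10.09 in wt/fl and 8.99, 8.70, 8.46 and 8.71 in fl/fl nerves (-1.15, SE 0.11, adjusted p = 2.07e-06). Its other arm miR-30a* differed by -0.83, miR-30c by -0.74 and miR-30b by -0.55, each past the test. miR-30d at -0.46, miR-30e* at -0.29, miR-30c-1* at -0.16 and miR-30e at -0.03 missed the limits. miR-30c-2* was at background in fl/fl nerves, at least 1.06-fold lower and not called. miR-30b* was well above background on all 4 fl/fl arrays and on no wt/fl array, at least 1.30-fold higher (adjusted p = 5.94e-06), and was not called.

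miR-15a and miR-16, which repress cyclins and Bcl2, fell by 0.81 and 0.71 on the log2 scale (adjusted p = 0.000207 and 0.000923). The 6 other expressed members of that list did not pass: miR-195 was at -0.48, miR-15b at -0.43, miR-497 at -0.28, miR-322* at 0.13, miR-503 at 0.27 and miR-322 at 0.40. Both arms of miR-140, a miRNA best known from cartilage, were lower. miR-140 lay between 7.71 and 8.01 in the controls and between 6.90 and 7.02 in the mutants (-0.91, adjusted p = 8.12e-07), and miR-140* differed by -0.64 (adjusted p = 5.15e-05). miR-455 was at -0.49, and miR-455* was well above background on 1 p4 array.

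Single members of 3 other families fell. miR-181b fell by 0.71 (adjusted p = 1.09e-07), while miR-181d at -0.32, miR-181a at -0.29 and miR-181c at -0.02 were not called. miR-130b fell by 0.66 (adjusted p = 0.000238), while miR-301a at -0.22 and miR-130a at 0.15 were not called and miR-301b was at background. miR-100 fell by 0.55 (adjusted p = 0.000234), beside miR-99b at -0.14, miR-125b-5p at 0.12, miR-99a at 0.13 and miR-125a-5p at 0.27, while miR-125a-3p was well above background on 1 p4 array. miR-107 at -0.48 and miR-103 at -0.37, a pair known to repress Dicer itself, missed the size limit.

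The let-7 miRNAs, which oppose Lin28 and accumulate as cells differentiate, were close to the limit. let-7f read 12.57, 12.51, 12.14 and 12.45 in the controls and 12.11, 12.17, 11.03 and 12.14 in the mutants (-0.55, SE 0.21, adjusted p = 0.0429). Its groups overlapped, and without the fl/fl array numbered 3 the difference was -0.27. Of the 8 other members none passed: 7 lay between -0.46 for miR-98 and -0.21, and let-7e was at 0.44 (adjusted p = 0.0503). Without normalization the 9 ranged from -1.39 to -0.65, let-7e included, and all 9 passed.

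Among the markers of neurons, miR-9 and miR-9* fell. miR-9 read 6.77, 6.66, 6.72 and 6.79 in the controls and was not well above background on any fl/fl array, a fall of at least 1.37-fold (adjusted p = 0.000603). miR-9* differed by -0.50 (adjusted p = 0.00210), a call that 5 of the 8 fits without 1 p4 array did not keep. The other neuronal markers were not called, with miR-124 at 0.31, miR-132 at 0.28 and miR-128 at 0.10. miR-340-3p, which is in no list, fell by 0.55.

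Among the rises whose groups did not overlap, the largest was that of miR-199b*. miR-199a and miR-214, typical of fibroblasts and smooth muscle, rose with miR-199b*. Their chr1 hairpins lie together in an antisense transcript of the dynamin 3 gene. The mature miR-199a sequences are encoded by 2 hairpins, and the array cannot tell which of them gave the signal. miR-199b* read 9.77, 9.90, 9.41 and 9.96 in wt/fl and 11.20, 11.41, 10.35 and 11.33 in fl/fl nerves. miR-199a-5p read 9.02, 9.16, 8.73 and 9.20 against 10.20, 10.48, 9.55 and 10.43. In both cases each mutant nerve was above each control nerve, and the differences were 1.31 (SE 0.21, adjusted p = 0.000162) and 1.14 (SE 0.20, adjusted p = 0.000300). miR-214 read 8.77, 8.56, 8.38 and 8.67 against 9.84, 9.92, 9.20 and 9.77 (1.09, adjusted p = 0.00118). miR-199a-3p differed by 0.78 (adjusted p = 0.0175) with groups that overlapped. Of the 5 expressed mesenchymal markers 4 rose, and miR-143 was at 0.08. As scanned these 4 differed by 0.15 to 0.35 and none passed the test.

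The miR-182, miR-183 and miR-96 cluster on chr6, which sensory neurons and other sensory cells express, rose in 3 of 3 expressed members. miR-183 read 7.25, 7.08, 7.12 and 7.36 in the controls and 8.24, 8.32, 7.83 and 8.23 in the mutants (0.95, SE 0.16, adjusted p = 0.000213). miR-96 read 6.74, 6.60, 6.62 and 6.93 against 7.60, 7.64, 7.34 and 7.62 (0.83, adjusted p = 3.44e-05). Neither overlapped. miR-182 differed by 0.60 (adjusted p = 0.000140). Without normalization they were still above 0, at 0.54 for miR-183 (adjusted p = 0.00954), 0.47 for miR-96 (adjusted p = 0.0265) and 0.32 for miR-182 (adjusted p = 0.213).

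The largest group of rises lay on chr12 in the imprinted Dlk1-Dio3 locus, where maternally expressed transcripts hold many miRNAs. Of 45 expressed members 14 rose and none fell, and the median was 0.37. Differences above 0 numbered 44 of the 45, beside 159 of all 276. The highest was miR-434-3p, which read 8.90, 8.92, 8.63 and 9.01 in the controls and 9.90, 10.13, 9.28 and 10.02 in the mutants (0.97, adjusted p = 0.000518). miR-299* differed by 0.93, miR-300 by 0.88, miR-154 by 0.86, miR-127 by 0.85, miR-329 by 0.82 and miR-379 by 0.81. Of these 7, none overlapped between the genotypes. miR-410 at 0.72, miR-382 at 0.67, miR-337-5p at 0.63, miR-136 at 0.62, miR-487b at 0.61, miR-376a at 0.59 and miR-411 at 0.58 completed the 14. The 31 others ranged from 0.00 for miR-341 to 0.50 for miR-377. As scanned, the 45 members ranged from -0.46 to 0.25 around a median of 0.02 and none passed the test.

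Outside these groups 8 miRNAs rose. miR-196a, encoded in the Hox clusters, differed by 0.75 (adjusted p = 0.000432), beside miR-10b at 0.47, miR-196b at 0.46 and miR-10a at -0.34, with miR-10a* at background. miR-335-5p, from the imprinted Mest gene, differed by 0.61 (adjusted p = 0.000183), and miR-148a by 0.60 (adjusted p = 0.000246), beside miR-152 at 0.28 and miR-148b at -0.18. miR-720, an annotation thought to derive from a transfer RNA, read 9.20, 8.79, 8.45 and 9.51 in the controls and 10.09, 9.74, 9.96 and 10.60 in the mutants (1.11, adjusted p = 0.00328). miR-671-5p, in no list, differed by 0.62. The 3 others, miR-223, miR-126-3p and miR-451, mark blood or vessel cells and are described with those markers.

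The remaining imprinted growth locus miRNAs were not called, with miR-335-3p at background and miR-483* the highest at 0.38, and neither were miR-29c at -0.18, miR-29b at 0.23 and miR-29a at 0.40, miRNAs that repress collagens. miR-21 and miR-221, which are known from nerve injury, were at 0.19 and 0.10. Of the 8 expressed miRNAs listed as matured by a noncanonical route or disputed as miRNAs, miR-451 and miR-720 were called and the others were not: miR-320 was at -0.03, miR-484 was at background in fl/fl nerves and at least 1.03-fold lower, and miR-702, miR-877 and miR-877* lay at or near background. miR-1224 was at 0.54 with an adjusted p of 0.467, and read 11.51 on the wt/fl array numbered 2 against 8.35 to 8.42 on the other wt/fl arrays.

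Markers of other cell types were measured in the same nerves, and their part in the results above was not tested. miR-451, made in red cells, read 7.94, 9.65, 7.89 and 7.64 in the controls and 9.30, 8.88, 9.94 and 10.38 in the mutants (1.35, SE 0.47, adjusted p = 0.0306). The wt/fl array numbered 2 lay inside the mutant range, the call held in 3 of the 8 fits without 1 p4 array, and without the 4th fl/fl array the difference was 1.09 (adjusted p = 0.0957). Without that wt/fl array numbered 2 it was 1.80. Of the other erythroid markers, miR-144 was detected on none of the p4 arrays, and miR-486 was well above background on 1 array of each genotype, so neither could show a change. miR-223 of myeloid cells read 7.80, 7.95, 7.59 and 7.92 against 8.64, 8.90, 8.24 and 8.73 (0.81, adjusted p = 6.48e-05). The groups were apart, while miR-142-3p was at 0.34, miR-155 was at background, and miR-142-5p and miR-150 were not detected. miR-126-3p of endothelium differed by 0.60 with groups that overlapped (adjusted p = 0.0123), and miR-126-5p was at background. Without normalization miR-126-3p turned to -0.32 (adjusted p = 0.272).

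All 5 skeletal muscle markers were expressed and none passed the test, although miR-206 was at 0.95 (adjusted p = 0.118), miR-133b at 0.71, miR-1 at 0.69 and miR-133a at 0.56, with miR-133a* near background. The summed signal of that list, as scanned on the log2 scale, ran from 7.63 to 9.97 in fl/fl and from 8.02 to 9.16 in wt/fl nerves, so the mutant nerves spanned the wider range. The erythroid sum ran from 8.82 to 10.25 in fl/fl and from 7.68 to 10.77 in wt/fl nerves, and the leukocyte sum from 8.13 to 8.70 and from 7.83 to 8.42. The mesenchymal sum ran from 12.39 to 13.29 in fl/fl and from 12.43 to 12.88 in wt/fl nerves. Of the 8 mesenchymal markers on the array miR-145, miR-145* and miR-214* were not detected at p4. The neuronal sum was lower throughout the fl/fl group, 6.74 to 7.35 against 8.12 to 8.20. The sum of all mouse miRNAs was lower throughout that group as well (log2 difference -0.96), so the as-scanned neuronal sum alone does not show a loss particular to neuronal miRNAs. After quantile normalization the median difference of the 5 neuronal markers was 0.10, with 3 above 0 and 2 called lower. The endothelial sum was 9.86 to 10.56 against 10.15 to 11.22. The hepatocyte marker miR-122 stood at 9.19 on the wt/fl array numbered 2 and at 5.89 to 6.14 on the other wt/fl arrays, and its difference was 0.06 (adjusted p = 0.938).

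**Figure D3:**
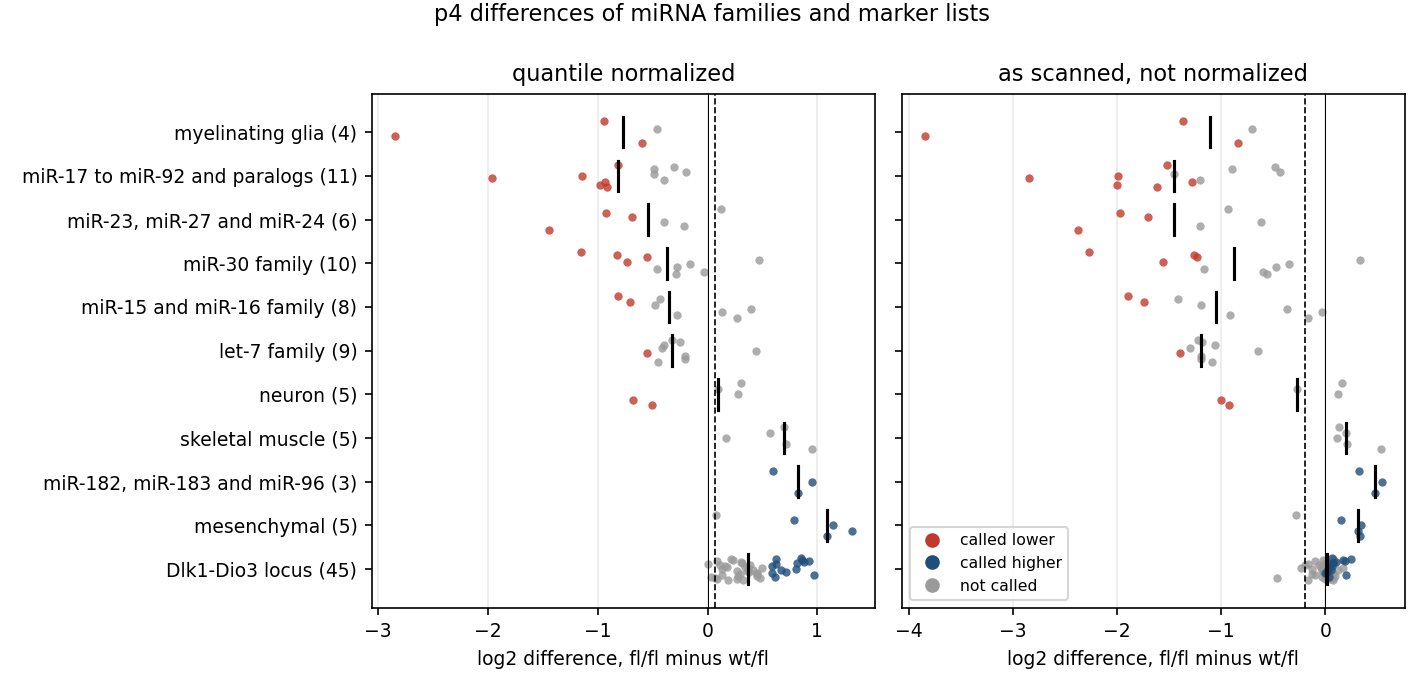
Log2 difference between p4 fl/fl and p4 wt/fl nerves (horizontal axis) of each expressed member of 11 miRNA lists, quantile normalized on the left and as scanned on the right. Points are miRNAs coloured by their call after normalization, black ticks are list medians and dashed lines the median of all 276 (0.07 and -0.19); the Dlk1-Dio3 median moves from 0.37 to 0.02 and the miR-17 to miR-92 median from -0.82 to -1.46.

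Both arms of a hairpin are cut from 1 precursor by Dicer, so they were compared where each arm was well above background on all 4 arrays of at least 1 genotype. There were 22 such pairs of arms, and in 20 both differences had the same sign. Among the 15 with at least 1 called arm, 14 had the same sign. In 4 both arms fell (miR-338, miR-30a, miR-140 and miR-9), in 1 both rose (miR-199a), and none had opposite calls. The exception in sign was miR-30b at -0.55 beside miR-30b*, which was at background in the controls and higher in the mutants.

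Hairpins were placed by their gene symbol, and those within 10000 bases of each other formed 33 groups of at least 2 expressed members. This placement missed some expressed neighbours, so the groups and their members are incomplete. Among those missed were miR-18a and miR-92a on chr14, miR-99b beside let-7e on chr17, and miR-181c beside miR-181d on chr8. In the chr13 group miR-23b, miR-27b and miR-24 lay between -1.45 and -0.69. The chrX group of miR-363, miR-20b and miR-19b lay between -1.96 and -0.49, and the chr5 group of miR-25, miR-93 and miR-106b between -0.92 and -0.40. The chr1 group of both miR-199a arms and miR-214 lay between 0.78 and 1.14. On chr12 a group of 34 expressed miRNAs from miR-379 to miR-410 ranged from 0.03 to 0.93 with 10 called higher, and a group of 10 around miR-127 from 0.13 to 0.97 with 4 called higher. Not all groups moved as one. The chr8 group of miR-23a, miR-27a and miR-24 ranged from -0.69 to 0.12. In the chr14 group miR-20a was at -1.14 and miR-19a at -0.19, and in the chr4 group miR-30c was at -0.74 and miR-30e at -0.03. Mature sequences encoded by several hairpins, such as miR-24, miR-16 or let-7f, count in each of their groups.

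Members of a family share a seed but are made from different genes, and the array allowed their responses to be set against each other within each nerve. This comparison was added with the results above known. In 91 pairs with identical bases 2 to 8, both well above background on all 4 arrays of at least 1 genotype, limma was run on the difference between the members on each array. By the same limits of size and adjusted p the fl/fl effect differed in 31 pairs (34.1%), and these came from 15 of 20 seeds. A member could enter through 1 genotype alone, and a member near background cannot show a full fall. The counts therefore hold pairs whose measured gap is limited in this way. An example is miR-181b against miR-181c, where miR-181c read 6.50 in wt/fl and 6.49 in fl/fl nerves. Without normalization 37 pairs passed, 25 of them among the 31.

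miR-146b fell and miR-146a was not called, although their mature sequences, shown above, differ at 2 bases. miR-146a read 6.44, 6.46, 6.45 and 6.35 in wt/fl and 6.36, 6.50, 6.51 and 6.33 in fl/fl nerves, and its difference was 0.00 (adjusted p = 0.999). The difference between the effects passed the test (adjusted p = 5.78e-13), but it has no exact size. miR-146b was at background in the mutants and fell at least 3.70-fold. miR-146a read close to background in both genotypes, so a fall of miR-146a could have been missed. miR-27b and miR-27a differ at 1 base, and their effects by -1.24 (SE 0.09, adjusted p = 1.48e-08). miR-30a and miR-30e also differ at 1 base, and their effects by -1.12 (adjusted p = 3.75e-08). miR-30e read 7.43, 7.30, 7.22 and 7.66 in the controls and 7.46, 7.40, 7.28 and 7.35 in the mutants. The groups of these low responders overlapped, where those of their relatives did not.

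Among the miRNAs with the seed of miR-20a, miR-20b fell more than each relative compared, with differences in effect of -1.15 against miR-106b (adjusted p = 5.46e-08), -1.05 against miR-93 (adjusted p = 1.72e-07) and -0.82 against miR-20a (adjusted p = 3.75e-07). By its brightest probe let-7e stood apart from all 8 relatives, with differences from -0.99 for let-7f to -0.65 for let-7g. Without normalization let-7c and miR-98 missed the size limit against it. The brightest let-7e probe was at 0.44 and its other probe at 0.04 (limma, adjusted p = 0.757), and the pairs were not compared by their other probes. miR-322 likewise stood apart from 5 relatives, from -1.21 for miR-15a to -0.67 for miR-497. miR-10a and miR-10b differed by -0.81 (adjusted p = 1.36e-05) and miR-100 and miR-99a by -0.68 (adjusted p = 4.01e-06), each with 1 differing base. miR-204 and miR-211 were not among the tested pairs, since miR-211 was close to background at 6.01 to 6.14 on all p4 arrays.

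These differences were kept in all 8 fits without 1 p4 array, except for miR-15a against miR-497 and miR-363 against miR-25, which passed in 6. Without normalization the latter pair did not pass, and miR-363 was at background in the mutants. The pairs that passed were 13 of 31 with up to 2 differing bases, 10 of 38 with 3 to 5 and 8 of 22 with more. How far near-identical miRNAs bind each other's probes was not measured on these arrays.

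**Figure D4:**
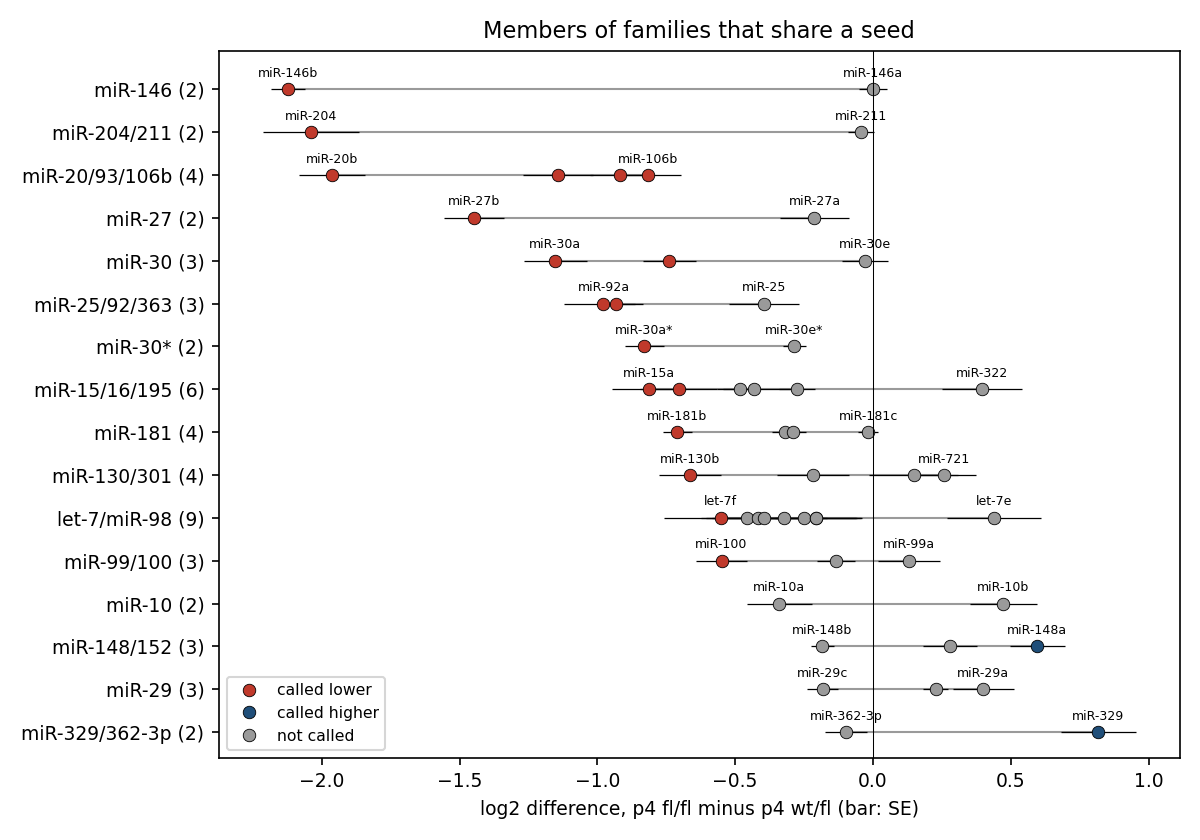
Log2 difference between p4 fl/fl and p4 wt/fl nerves (horizontal axis, bar: SE of the limma fit) for members of the 16 families that share a seed and whose members span at least 0.5, with the number of expressed members in parentheses. Red and blue points are called lower and higher, and the extreme members are named; let-7 spans -0.55 to 0.44, and the points of miR-146b and miR-363 (at background in fl/fl) and of miR-211 (at background in both) show measured signals and no exact sizes.

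Detection on the array compared the genotypes as a yes or no. It was read before normalization, where the fl/fl summed signal was 51.2% of the control. A dim miRNA could therefore drop out of detection in fl/fl nerves without a fall relative to the other miRNAs. Of 611 mouse miRNAs 187 were detected on all 8 p4 arrays and 311 on none. In 13 cases all 4 wt/fl arrays and no fl/fl array detected the miRNA: miR-9, miR-17*, miR-24-1*, miR-30c-2*, miR-101b, miR-138*, miR-146b, miR-338-5p, miR-340-5p, miR-363, miR-467b, miR-700 and miR-805. Of these 13, miR-9, miR-146b, miR-338-5p and miR-363 were called lower after normalization, and the others were not called. The reverse pattern of detection held for 1, miR-150*. Over all 611, 59 were detected on more wt/fl arrays and 46 on more fl/fl arrays.

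At E17 the same contrast was smaller, and no array is shared between the 2 ages. There 7 of the 276 miRNAs were lower (2.54%) and 10 higher (3.62%). Of the 30 that were lower at p4, 28 differences were below 0 at E17 as well, beside 141 of all 276, and 4 passed the test at E17 (miR-20b, miR-27b, miR-363 and miR-130b). Of the 29 that were higher at p4, 27 were above 0 at E17, beside 135 of all 276, and 8 passed: miR-127, miR-199a-3p, miR-199a-5p, miR-199b*, miR-214, miR-335-5p, miR-379 and miR-720.

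The difference between the ages was tested as the p4 effect minus the E17 effect. It passed for 19 miRNAs with the lower effect at p4 (6.88%) and for 8 with the higher (2.90%), and 18 of the 19 and 4 of the 8 had also passed at p4. miR-338-3p differed by -0.57 at E17 and by -2.85 at p4, a change in effect of -2.28 (SE 0.29, adjusted p = 0.000103). miR-146b was at -0.14 at E17 and fell at least 3.70-fold at p4, so its change (adjusted p = 1.68e-09) has no exact size. The paper reports that miR-146b rose in control nerves from E17 to p4. Its lower E17 signal left less room for a fall at that age, and the part of this in the change was not tested. miR-204 was at -0.21 at E17 (change -1.82, adjusted p = 0.000179), and miR-34a at -0.44 (change -1.82, adjusted p = 1.22e-06). miR-183 was at -0.11 at E17 and 0.95 at p4, a change of 1.07 (adjusted p = 0.00493). The mesenchymal and Dlk1-Dio3 rises at p4 had E17 differences of the same sign, and among them miR-487b passed the test of the change (0.55, adjusted p = 0.0298). The E17 arrays were on another slide with another scan, so age and slide cannot be told apart in this test. The number with the higher effect at p4 was 5 to 23 when 1 p4 array was left out, with 23 without the fl/fl array numbered 3 and 17 without the wt/fl array numbered 2.

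**Figure D5:**
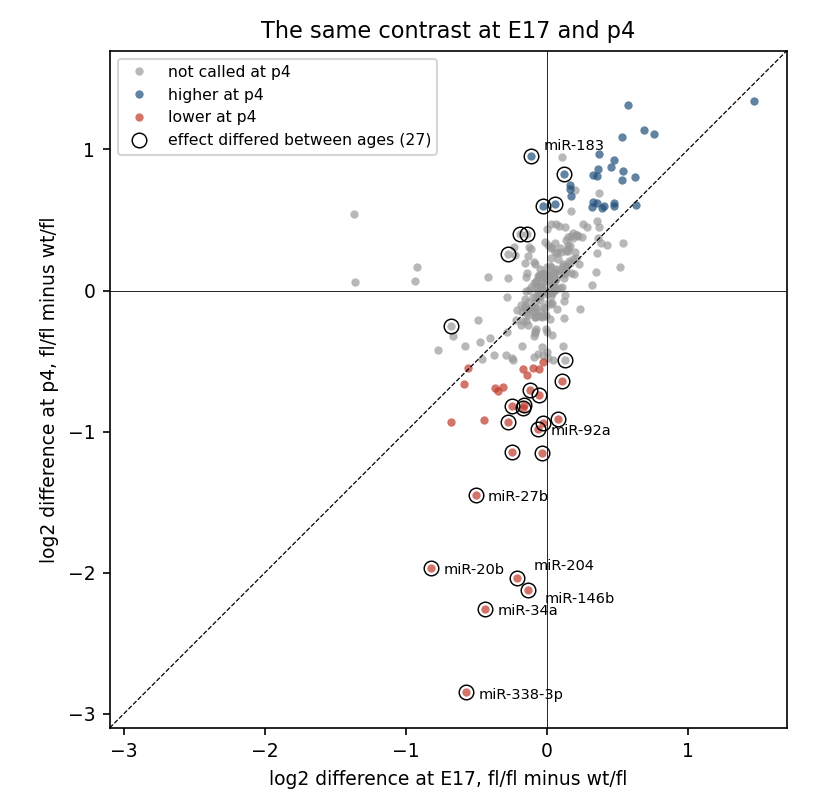
Log2 difference between fl/fl and wt/fl nerves at p4 (vertical axis) against that at E17 (horizontal axis) for 276 expressed mouse miRNAs, 4 arrays a group at each age, with the dashed line at equal effects. Circles mark the 27 miRNAs whose effects differed between the ages; miR-338-3p is at -0.57 and -2.85, and miR-183 at -0.11 and 0.95.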

How the data were processed

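Sciatic nerve miRNAs were measured on single-colour Agilent mouse miRNA arrays, 1 array per animal. Per the file headers, the authors extracted spot intensities with Agilent Feature Extraction (10.5.1.1), which flags outlier spots, spots well above background and detected miRNAs. A second deposited table holds the authors' quantile-normalized intensity per probe and was used as an alternative only. From the deposited intensities, median spot signals were taken to log2 and quantile normalized over 13000 non-control spots of 16 arrays, and spots of a probe were averaged without outlier spots. No spot was saturated on any p4 array. The signal, transform, normalization, detection filter and both limits of the calls follow the study's description. The adjustment of p and the exclusion of outlier spots were added here. The study counts fewer expressed miRNAs than the 276 mouse miRNAs found here, and the reason was not tested. limma (3.58.1, R 4.3.3) was fitted to 681 probes of the expressed miRNAs with 4 group means, in place of the methods' t-test, which is an alternative. It was tested on simulated data first. A miRNA was called where at least 1 probe passed and none passed the other way, and "at least" folds use the lowest signal well above background. Within groups, arrays correlated at 0.962 to 0.998. The number of arrays, 4 a group, limits the precision.

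The normexp alternative used median signals, since mean signals are not among the columns of the files. All p4 arrays were on 1 slide with 1 scan. The named miRNAs are the 12 largest falls and 12 largest rises without overlap, the other called list members, uncalled list members (those of the Dlk1-Dio3 list by range) and both arms of called hairpins. The members and the lists were chosen with earlier results of these data known. Sequences and coordinates come from RefSeq for GRCm38.p6. Names on the array are older ones and were kept. Alternatives were other scalings, background corrections, filters, tests and subsets of arrays. Viral miRNAs were left out of the text. Figures were drawn with matplotlib.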

Additional observations from a re-analysis of the deposited data

Results flagged for a closer look

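In 31 of 354 groups of 4 arrays, 1 array lay so far from the others that its gap to the nearest, divided by the group's range, passed Dixon's limit, which chance passes in about 1 of 20 groups. The arrays numbered 3 were the low ones for let-7d in wt/fl (0.834) and fl/fl nerves (0.873), and in wt/fl nerves for let-7c (0.912), let-7i (0.881), let-7g (0.895), miR-29c (0.875), miR-125b-5p (0.970), miR-23a (0.909), miR-541 (0.858), miR-21 (0.885) and miR-154 (0.832). In fl/fl nerves the array numbered 3 was low for miR-338-3p (0.892), miR-363 (0.871), let-7f (0.946), let-7e (0.931), miR-128 (0.859), miR-495 (0.832), miR-376a (0.929), miR-329 (0.880) and miR-96 (0.852). The wt/fl array numbered 2 was the high one for miR-122 (0.925), miR-494 (0.906), miR-486 (0.875), miR-1224 (0.978), miR-1 (0.891) and miR-451 (0.849). miR-494 read 9.38 there and 6.76 to 7.01 on the other wt/fl arrays. The remaining ones were miR-146b (0.858, wt/fl array 1 high), miR-340-3p (0.844, fl/fl array 2 high), miR-455* (0.858, wt/fl array 4 high), miR-146a (0.840, wt/fl array 4 low) and miR-335-3p (0.907, fl/fl array 2 high).

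For 25 named miRNAs the fl/fl effect differed between p4 and E17 by limma. The p4 effect was the lower one for miR-338-3p (-2.28), miR-34a (-1.82), miR-146b (-1.99 as measured, with its p4 fl/fl signal at background), miR-204 (-1.82), miR-20b (-1.14), miR-27b (-0.94), miR-30a (-1.12), miR-20a (-0.89), miR-92a (-0.92), miR-138 (-0.91, with 3 of 4 p4 fl/fl arrays at background), miR-23b (-0.65), miR-140 (-0.99), miR-30a* (-0.66), miR-106b (-0.57), miR-15a (-0.65), miR-30c (-0.68), miR-16 (-0.58, called by its other probe), miR-140* (-0.75) and miR-455 (-0.62). It was the higher one for let-7b (0.43, called by its other probe), miR-29a (0.59), miR-182 (0.62), miR-487b (0.55), miR-96 (0.71) and miR-183 (1.07). miR-721 and miR-1895, in no list, also passed as higher. Slide and age cannot be told apart in these values. For miR-146b and miR-138 the lower E17 control signal that the paper reports also left less room for a fall at that age.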

How the results depend on the processing

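The counts of lower and higher miRNAs at p4, 30 and 29 (59 in all), stayed within 1.5 times under the stricter detection filter, no filter, the methods' t-test with and without adjustment, the 8 p4 arrays alone, array weights, the mean of a miRNA's probes and the authors' deposited intensities. They became 88 and 1 (89) without normalization, 22 and 199 (221) with 75th percentile scaling, 22 and 19 with normexp, 75 and 74 (149) with background-subtracted signals, 8 and 6 (14) at a log2 limit of 1 and 85 and 83 (168) without a limit. Leaving out 1 p4 array gave 57 to 69 calls in all, 28 to 39 lower and 27 to 36 higher, and 28 of 30 falls and 27 of 29 rises were kept in all 8 fits. The exceptions were let-7f, miR-9*, miR-126-3p and miR-451.

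For the change of effect between the ages, 27 miRNAs (19 and 8) became 85 (83 and 2) without normalization, 70 with 47 higher at the 75th percentile, 17 with 1 higher under normexp, 56 with 32 higher under array weights, 43 with 17 higher with the authors' intensities, 7 (6 and 1) at a limit of 1 and 60 (43 and 17) without a limit. The higher count alone became 5 with background-subtracted signals, 5 without a filter, 3 with the mean of probes and 19 without both arrays numbered 3, an alternative chosen after seeing the data. Leaving out 1 array gave 23 to 42 in all, 18 to 23 lower and 5 to 23 higher. The summed signal difference of -0.96 was -0.52 with median signals minus local background (exact p = 0.0857), -0.98 without the 10 brightest miRNAs and -1.06 to -0.87 without 1 array. Pairs with a shared seed numbered 31 and, without normalization, 37.

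The study used pairs of littermates at each age, but no source used here ties the replicate number to a litter. Same-numbered p4 arrays correlated in their deviations at r of 0.171, -0.281, 0.459 and 0.164, so the number was not used to pair them, and whether it marks litters is not known. With the replicate block 58 miRNAs passed at p4, 30 lower and 28 higher, and 29 for the change of effect. miR-451 was the call it lost.

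Without normalization the sign turned for miR-126-3p (-0.32) and miR-148a (-0.090), which had been higher, and let-7e (-0.65), miR-125a-5p (-0.52), miR-125b-5p (-0.60), miR-130a (-0.93), miR-21 (-0.80), miR-23a (-0.93) and miR-99a (-0.85), uncalled before, passed as lower. At the 75th percentile miR-338-5p, called lower before, turned to 0.043 and did not pass. After quantile normalization 117 of all 276 miRNAs were below 0, and under that scaling 53 were. Among the named miRNAs that were below 0 and not called before, 22 lay above 0 at the 75th percentile and were called by at least 1 probe: miR-10a* (0.73), miR-125a-3p (0.70), miR-138* (0.18), miR-146a (0.66), miR-148b (0.46), miR-17* (0.40), miR-181a (0.19), miR-181c (0.61), miR-181d (0.24), miR-19a (0.45), miR-211 (0.73), miR-24-1* (0.27), miR-301a (0.25), miR-301b (0.67), miR-30c-1* (0.53), miR-30c-2* (0.41), miR-30e (0.29), miR-30e* (0.33), miR-320 (0.56), miR-341 (0.72), miR-455* (0.56) and miR-484 (0.56). The cause of these changes was not tested.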
